A study of Homo sapiens with 8 samples.

Results

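GINS1, GINS2, GINS3 and GINS4 encode the subunits of the GINS complex, and CDC45 encodes the partner that joins GINS and the MCM hexamer to form the active replicative helicase. These 5 genes were taken from the 42072 named genes on the arrays as the non-control probes that carry one of the 5 symbols. Each gene had 1 probe, and the GINS2 probe was printed as 10 spots per array while the other 4 had 1 spot each. The question asked of them was whether the partner subunits followed the loss of GINS1 when it was targeted by either of 2 small interfering RNAs (siRNAs).

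Gene expression was measured on 8 Agilent 2-colour arrays of human cancer cell lines. On each array, RNA of mock cells, labelled as having had no transfection, was in the Cy3 channel and RNA of transfected cells of the same line was in the Cy5 channel. In the breast cancer line MDA-MB-231, si-GINS1_1 was on 1 array and si-GINS1_2 on another. The renal cancer lines A498 and 786-O each received miR-139-5p on 1 array and miR-139-3p on another, and the colorectal cancer line HCT116 received miR-490-5p on 1 array and miR-490-3p on another. Transfections used a lipid reagent. A transfected non-targeting control was not analysed here, so a ratio to mock holds the response to transfection as well as that to the siRNA or miRNA. The replicates of si-GINS1 are different siRNAs in 1 line, and those of each miR-139 strand are different lines. The labels do not say whether both arrays of a line carried the same mock extract, so values on both arrays of a line may share an error of the mock.

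In the cell cycle, MCM hexamers are loaded onto origins as inactive rings during licensing. At origin firing, kinases and the firing factors recruit CDC45 and GINS, and the assembled CDC45, MCM and GINS helicase then unwinds DNA at the fork together with DNA polymerase epsilon. The 4 GINS proteins form a stable tetramer. Transcription of many of these genes rises toward S phase under E2F factors, so that their mRNA level also follows how many cells are cycling.

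Values are log2 ratios of transfected (Cy5) over mock (Cy3) after background correction and loess normalization within each array, unless a level is named. A gene was counted as measured on an array when its probe was well above background in at least 1 channel. All 5 probes passed this on all 8 arrays. Between 24985 and 29687 of 58201 probes did so on an array, no spot was saturated, and precision is limited by how few arrays there were. Marker genes were checked against the labelled tissues. PAX8, PAX2, CDH16 and LHX1 were above background in both mock channels of both renal lines, EPCAM, CDH1, CDX1 and CDX2 in those of HCT116, and VIM, CD44, CAV1 and ZEB1 in those of MDA-MB-231, while CDH17 and VIL1 were not well above background in HCT116. Being above background did not separate the lines for some markers. PAX8, LHX1, CDX1, EPCAM, VIM, CD44, CAV1, ZEB1 and ESR1 were above background in both mock channels of all 4 lines. PAX2 was so in HCT116 too, and CDH1 and GATA3 in MDA-MB-231. By level (log2 Cy3), PAX8 and LHX1 were higher in both renal lines than in the others. LHX1 had 9.55 in A498 and 10.6 in 786-O, against 5.99 in MDA-MB-231 and 6.48 in HCT116. PAX8 had 8.13 and 8.06, against 6.71 and 6.31, in the same order of lines. CDX1 was higher in A498 (7.12) than in HCT116 (6.81). VIM was higher in A498 (14.8) and 786-O (15.1) than in MDA-MB-231 (14.6).

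The probe of GINS1 (NM_021067) lay at chromosome 20, 25429111 to 25429170, that of GINS2 (NM_016095) at chromosome 16, 85711654 to 85711713, and that of GINS3 (NM_022770) at chromosome 16, 58439799 to 58439858. The CDC45 probe (NM_003504) lay at chromosome 22, 19506385 to 19508015. These positions are those of the array annotation, which names no build. Of the 5 probes, 2 lay within the bounds of their gene in GRCh38.p14, so the positions belong to another build, and exons and untranslated regions were not assigned to them. The 60 bases of the CDC45 probe covered 1631 bases of the genome, so this probe crosses a splice junction and measures spliced mRNA.

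The CDC45 probe is shown as the only one of the set that spans an intron, in lower case as deposited:
CDC45 probe: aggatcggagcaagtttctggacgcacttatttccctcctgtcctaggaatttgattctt

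The promoters are shown because the partner genes lay on the same side of mock on each siRNA array. RefSeq windows on GRCh38.p14 were found for 4 of the 5 members. Each runs from 250 bases before the start site to 30 bases after it, 5′ to 3′ on the strand of the gene. Capitals mark E2F-type words (that is TTTCCCG, or the word TTTCGCG, or the word TTTGCCG, or the word TTTGGCG, on either strand) and CCAAT boxes (CCAAT on either strand). These words were chosen after the windows had been read. CDC45 had 3 windows and the one at chromosome 22, 19479670 to 19479949 is shown. The GINS1 window lies at chromosome 20, 25407423 to 25407702, the GINS2 window on the minus strand at chromosome 16, 85688925 to 85689204, and the GINS3 window at chromosome 16, 58392221 to 58392500.
GINS1 promoter: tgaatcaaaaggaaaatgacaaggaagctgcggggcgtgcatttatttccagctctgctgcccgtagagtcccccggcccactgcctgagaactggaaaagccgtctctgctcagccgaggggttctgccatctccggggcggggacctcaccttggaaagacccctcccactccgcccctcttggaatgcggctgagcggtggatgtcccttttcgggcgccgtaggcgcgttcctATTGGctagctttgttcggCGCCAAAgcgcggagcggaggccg
GINS2 promoter: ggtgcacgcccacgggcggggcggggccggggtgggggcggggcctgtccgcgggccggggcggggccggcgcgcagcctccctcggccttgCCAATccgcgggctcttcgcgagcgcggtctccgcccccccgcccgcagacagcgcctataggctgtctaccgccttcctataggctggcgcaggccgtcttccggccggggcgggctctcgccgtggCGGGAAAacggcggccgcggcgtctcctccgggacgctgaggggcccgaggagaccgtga
GINS3 promoter: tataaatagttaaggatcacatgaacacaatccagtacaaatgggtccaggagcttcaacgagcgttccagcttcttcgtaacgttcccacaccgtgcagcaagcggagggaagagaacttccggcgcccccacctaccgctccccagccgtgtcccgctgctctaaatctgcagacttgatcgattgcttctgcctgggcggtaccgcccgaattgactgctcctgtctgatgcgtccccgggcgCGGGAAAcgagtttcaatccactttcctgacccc
CDC45 promoter: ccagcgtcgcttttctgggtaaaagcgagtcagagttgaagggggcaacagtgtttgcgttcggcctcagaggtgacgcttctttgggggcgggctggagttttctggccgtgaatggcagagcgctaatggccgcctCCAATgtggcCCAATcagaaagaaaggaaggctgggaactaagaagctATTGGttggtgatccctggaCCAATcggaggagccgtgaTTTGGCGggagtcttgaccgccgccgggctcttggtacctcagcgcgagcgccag

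Each of the 4 printed windows held 1 E2F-type word. Its first base lay at -30 from the start site in GINS2, at -25 in CDC45, at -4 in GINS3 and at 7 in GINS1. Of 35116 promoter windows of this length, 8.2% held such a word. The other CDC45 windows held none. A CCAAT box was present once in the GINS1 and GINS2 windows, 4 times in the CDC45 window and not in that of GINS3, against 33.6% of all windows. The words were chosen after these windows had been read, and the printed CDC45 window is the only one of that gene with an E2F-type word. The shares of all windows are therefore no test of whether the members differ from other genes. These matches are descriptions of letters and show no binding.

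GINS1 was lower than mock with both siRNAs, which checks the labels of these arrays. Its log2 ratio was -1.31 with si-GINS1_1 and -1.92 with si-GINS1_2, that is 40.3% and 26.4% of the mock level on this scale. In raw spot brightness, before any correction, the mock and transfected channels read 672 and 372 with si-GINS1_1 and 708 and 197 with si-GINS1_2, against a local background of 14 and 17. On the other 6 arrays, which are of other lines, the lowest GINS1 ratio was -0.11, the median 0.16 and the highest 0.55. The mean of the siRNA arrays was -1.61 ± 0.43 (SD, n = 2), with an adjusted p of 0.0174 in limma. Of all probes tested in this comparison 6.97% were called, in either direction. This call was lost with the scanner software's own ratios (adjusted p 0.0560 in limma), with a trended variance and robust prior (0.0506) and when only the siRNA arrays were fitted (0.523).

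The partner subunits did not follow GINS1 with si-GINS1_1, where all 4 lay above mock, and did so with si-GINS1_2, where all 4 lay below mock. With GINS1 below mock on both arrays, the direction of the partners differed between the siRNAs.

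GINS2, the subunit known as PSF2, had a log2 ratio of 1.21 with si-GINS1_1 and -1.07 with si-GINS1_2. The 10 spots of its probe lay between 1.14 and 1.33 on the si-GINS1_1 array (SD 0.07) and between -1.19 and -0.98 on the si-GINS1_2 array (SD 0.06). The ranges of the spots were far apart, so the reversal was not the reading of 1 spot. In raw brightness, GINS2 read 309 in mock and 1124 in transfected cells with si-GINS1_1, and 297 and 146 with si-GINS1_2.

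GINS4, the subunit known as SLD5, was read by a probe at chromosome 8, 41402042 to 41402101 (NM_032336), and lay at 0.94 with si-GINS1_1 and -0.71 with si-GINS1_2. GINS3, the subunit known as PSF3, lay at 0.83 and -0.47, the value closest to mock among the 4 partners with si-GINS1_2. CDC45, which links the MCM ring to GINS, lay at 0.75 and -1.63. CDC45 thus had the lowest value of the 4 partners with either siRNA. In raw brightness it read 716 in mock and 1876 in transfected cells with si-GINS1_1, and 793 and 283 with si-GINS1_2.

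**Figure D1:**
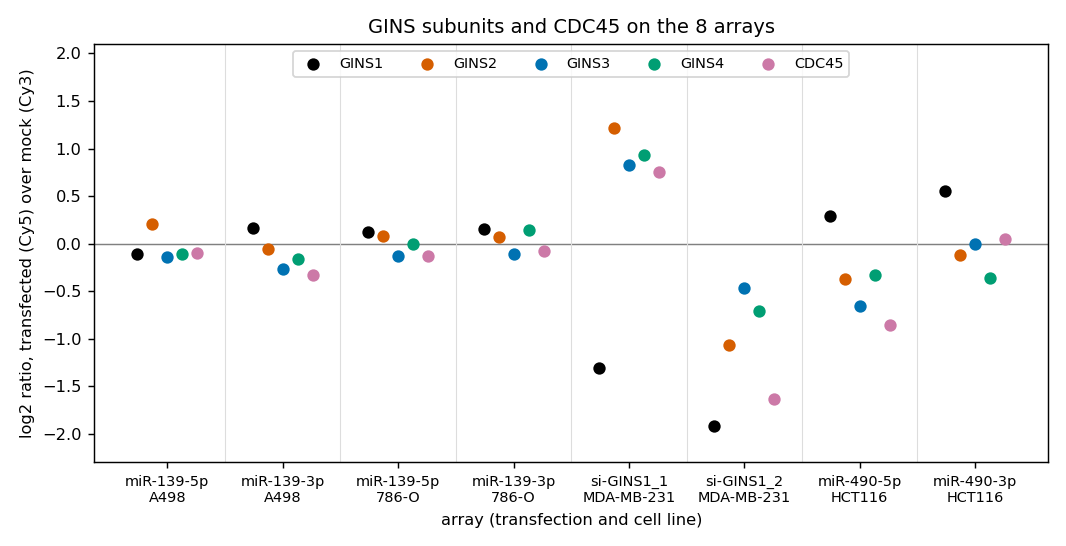
Log2 ratio of transfected over mock (vertical axis) for GINS1, GINS2, GINS3, GINS4 and CDC45 on each of the 8 arrays (horizontal axis), 1 point per gene and array. GINS1 lies at -1.31 and -1.92 with the siRNAs, while the 4 partners lie between 0.75 and 1.21 with si-GINS1_1 and between -1.63 and -0.47 with si-GINS1_2.

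Fitted over both siRNAs, no partner was called by limma, and 0 of the 4 had an unadjusted p under 0.05, against 25.9% of all probes. The mean log2 ratio was 0.07 ± 1.61 for GINS2, 0.18 ± 0.92 for GINS3, 0.11 ± 1.16 for GINS4 and -0.44 ± 1.68 for CDC45 (SD, n = 2 each), and the lowest of the 4 adjusted p values in limma was 0.671. A mean near 0 here is the average of values on opposite sides of mock. When each siRNA was fitted alone, with its spread assumed to be that of the other groups, all 5 members were called with either one. With si-GINS1_1 alone the limma adjusted p lay between 0.000826 and 0.00449, GINS1 was lower and the 4 partners were higher. With si-GINS1_2 alone it lay between 0.00113 and 0.0124 and all 5 were lower. Such a fit called 31.9% of all probes for si-GINS1_1 and 23.5% for si-GINS1_2, so a call by it is common.

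Sizes gave a narrower background. With si-GINS1_1 the 4 partners were at or above 0.5, as were 7.93% of the 22216 genes measured on that array, and they stood between the percentiles 97.2 (CDC45) and 99.6 (GINS2). With si-GINS1_2, GINS2, GINS4 and CDC45 were at or below -0.5, as were 6.41% of genes, and GINS3 stood just inside this limit, at percentile 7.19. CDC45 stood at percentile 0.172 on that array and GINS1 at percentile 0.0699. Of 20882 genes measured on both siRNA arrays, 0.795% lay at or above 0.5 with si-GINS1_1 and at or below -0.5 with si-GINS1_2, and GINS2, GINS4 and CDC45 were among these 166 genes.

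The difference between the siRNAs, si-GINS1_2 minus si-GINS1_1, is free of any dye effect that a probe has on every array. It was -2.38 for CDC45, -2.28 for GINS2, -1.65 for GINS4 and -1.30 for GINS3. All 4 were at or below -1, as were 2.86% of genes. Ranked from the lowest difference among 20882 genes, CDC45 stood at place 7, GINS2 at 13, GINS4 at 110 and GINS3 at 243. GINS1, lower on both arrays, differed by -0.61 and stood at place 1700. There was 1 array per siRNA, so no test of these differences was run.

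**Figure D2:**
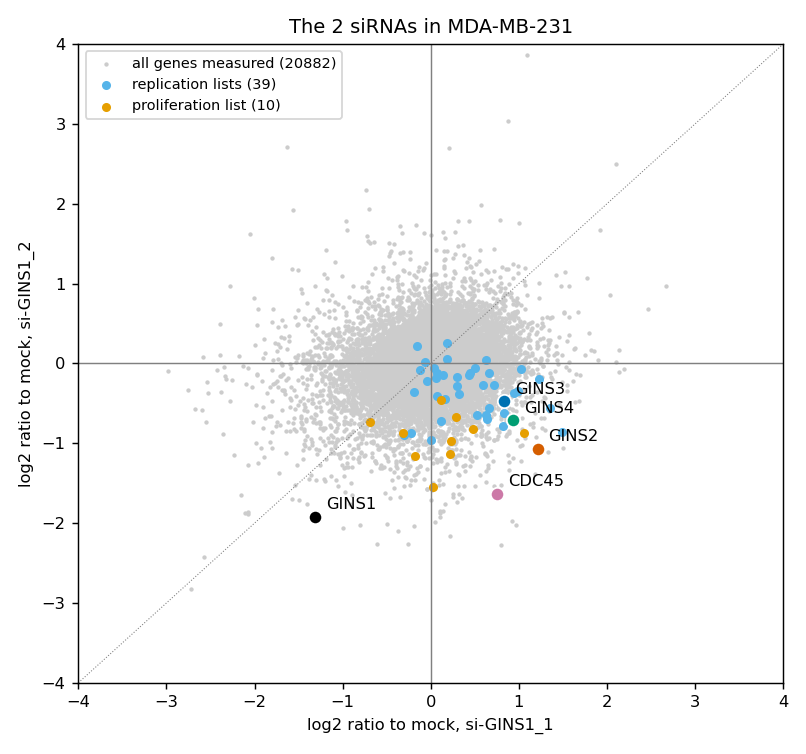
Log2 ratio to mock with si-GINS1_1 (horizontal axis) against si-GINS1_2 (vertical axis) in MDA-MB-231, 1 point per gene. Grey points are the 20882 genes measured on both arrays, blue points the genes of the 5 replication lists, orange points the proliferation list, and the dotted line marks equal values. GINS1 lies at the lower left, and GINS2, GINS3, GINS4 and CDC45 lie at the lower right, above mock with one siRNA and below it with the other.

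Within each array the partners also stood apart from GINS1 by different amounts. With si-GINS1_1 they lay above GINS1 by 2.06 (CDC45) to 2.52 (GINS2) log2 units. With si-GINS1_2 they lay above it by 0.29 (CDC45), 0.85 (GINS2), 1.21 (GINS4) and 1.45 (GINS3). The Cy3 signals of both MDA-MB-231 arrays, which both hold mock RNA, differed with an SD of 0.06 log2 units over 25822 probes, and those of the 5 members differed by at most 0.10 in size. This spread is technical and leaves out how far a repeated transfection would vary, which 1 array per siRNA does not show.

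The directions did not depend on how the ratios were made. Under the scanner ratios, median centring, a smaller offset, no background correction, or with the mean of the other 6 arrays taken off each probe, the partners stayed above 0 with si-GINS1_1 and below 0 with si-GINS1_2, and GINS1 stayed below 0 with both. Median centring left the median of all measured genes at 0.18 on the si-GINS1_1 array and at 0.08 on the si-GINS1_2 array. Relative to these medians, the partners lay between 1.12 and 1.52 with si-GINS1_1, and GINS3, the partner closest to mock with si-GINS1_2, lay at -0.31.

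**Figure D3:**
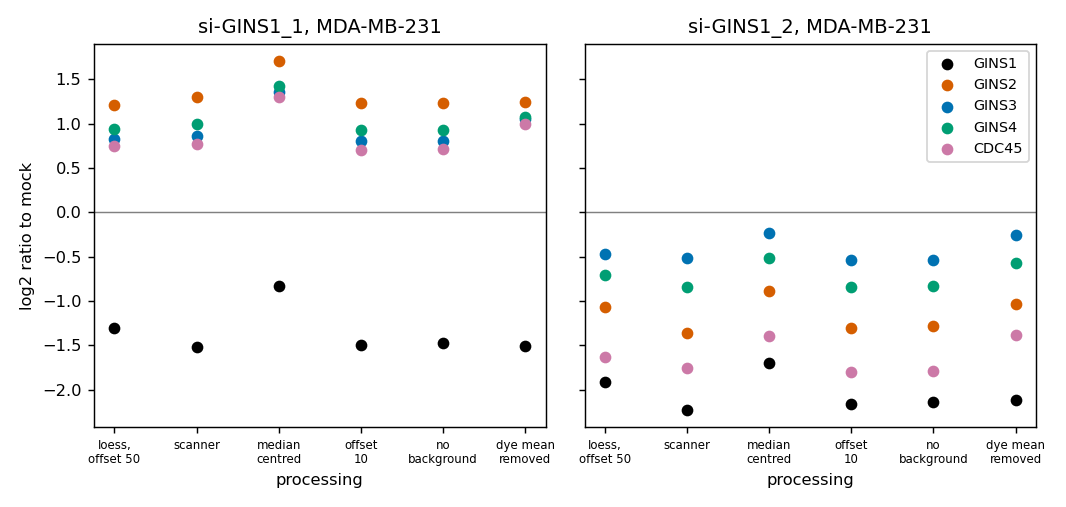
Log2 ratio to mock (vertical axis) of the 5 members with si-GINS1_1 (left) and si-GINS1_2 (right) under 6 ways of processing the spots (horizontal axis), 1 point per gene. GINS1 is the only member below 0 on the left in every setting shown, and all 5 members are below 0 on the right in every setting shown.

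The other genes of helicase assembly were then described from lists by role. limma, fitted over both siRNAs, called 0 of the 39 genes in the 5 replication lists in either direction, beside 813 lower and 750 higher of 20876 genes tested. Of the 39 genes, 4 had an unadjusted p under 0.05, as did 27.1% of all genes tested. The split of all calls depended on the scaling, with 1010 probes lower and 926 higher here, 285 and 2689 under median centring, 59 and 16 by the scanner ratio, and 981 and 535 with an offset of 10. The medians per array show more, and both medians over all genes were near 0 (0.02 with si-GINS1_1 and 0.00 with si-GINS1_2).

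The MCM hexamer, the ring that GINS and CDC45 activate, differed from the partners on the si-GINS1_1 array. Its 6 genes had a median of 0.06 with si-GINS1_1, with values between -0.30 and 0.64, and a median of -0.79 with si-GINS1_2, where all 6 lay below 0. MCM6 had the lowest mean of the list, at -0.30 with si-GINS1_1 and -0.89 with si-GINS1_2, and MCM5 the highest, at 0.64 and -0.70. Each partner of GINS1 thus lay above all 6 MCM genes with si-GINS1_1.

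The licensing list, which holds the origin recognition complex, CDC6, CDT1 and its inhibitor geminin (GMNN), had medians of 0.14 and -0.14 over 9 genes. CDT1, the factor that loads MCM rings, lay at 1.35 with si-GINS1_1 and -0.56 with si-GINS1_2, the highest mean of the list. GMNN had the lowest mean, with 0.07 and -0.41. The firing list, the factors and the kinase that bring CDC45 and GINS to the ring, had medians of 0.64 and -0.21 over 8 genes. CDC7, the catalytic subunit of the firing kinase, lay at 1.22 and -0.20, and DONSON, which helps to deliver GINS, at -0.04 and -0.22. Another DONSON probe above background lay at 0.38 and -0.11, so its side of mock with si-GINS1_1 depended on the probe.

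Fork partners, among them the subunits of DNA polymerase epsilon and the fork protection pair TIMELESS and TIPIN, had medians of 0.38 and -0.15 over 8 genes, and all 8 lay above 0 with si-GINS1_1. POLE3, a histone-fold subunit of polymerase epsilon, lay at 1.03 with si-GINS1_1 and -0.07 with si-GINS1_2, and TIPIN at 0.06 and -0.18. The genes of helicase unloading, which mark the MCM ring with ubiquitin and extract it when replication ends, had medians of 0.39 and -0.32 over 8 genes. LRR1, the substrate receptor of the ubiquitin ligase, lay at 0.95 and -0.37, and the extracting ATPase VCP at -0.19 and -0.36. Another LRR1 probe lay at 0.47 and -0.14.

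Proliferation genes also stood lower with si-GINS1_2 than with si-GINS1_1. The list of 10 had a median of 0.16 with si-GINS1_1, where 7 lay above 0, and of -0.87 with si-GINS1_2, where all 10 lay below 0. E2F1, a transcription factor of the S phase programme, had the highest mean, with 1.06 and -0.87, and TYMS, the enzyme that makes thymidylate, the lowest, with 0.03 and -1.55. CCNA2, the cyclin of S phase and G2, was the gene of this list that limma called over both siRNAs, at -0.69 and -0.73 (adjusted p 0.0151). Like that of GINS1, this call was lost by the scanner ratio (limma adjusted p 0.114), with a trended variance and robust prior (0.0506) and with only the siRNA arrays (0.523). In these bulk samples, fewer cycling cells and less mRNA per cell cannot be told apart, and the part of proliferation in the partner values was not tested. The interferon response list, genes that foreign RNA can induce, had medians of -0.71 with si-GINS1_1 and -0.52 with si-GINS1_2. limma called 0 of its 8 genes, with 2 at an unadjusted p under 0.05, a share near that of all genes. With miR-139-5p and miR-139-3p, its medians were -0.63 and -0.99 in A498 and 0.10 and -0.06 in 786-O. The shared fit counts this gap between lines as spread, so the lack of calls does not show that the list was unchanged. With the siRNAs, IFIT3 lay at -1.44 and -0.85, and MX1 at 0.48 and -0.10. The interferon genes therefore were not higher than mock on the siRNA arrays by their median.

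**Figure D4:**
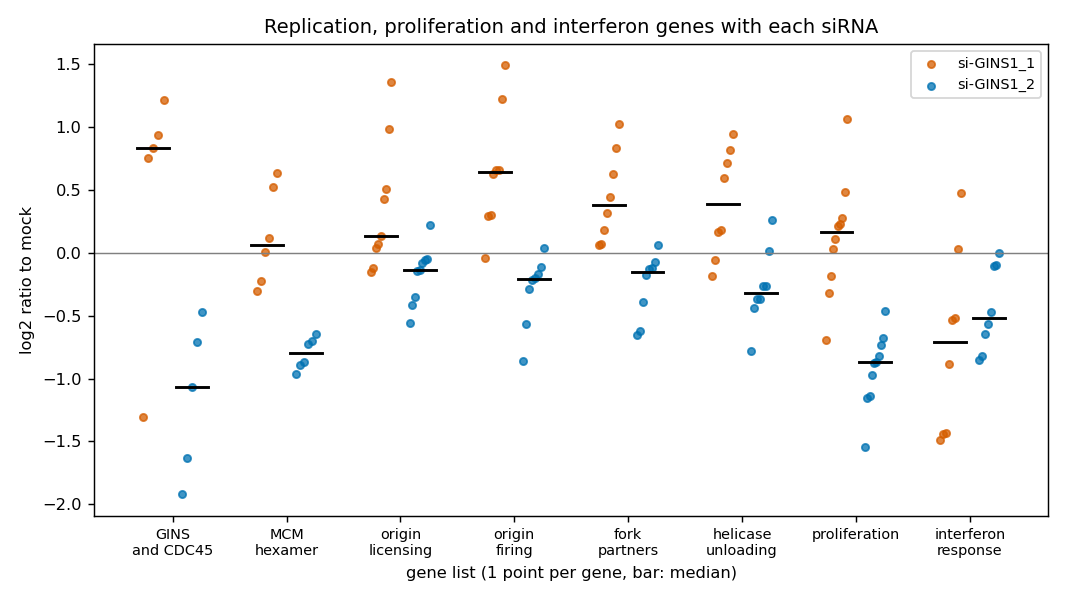
Log2 ratio to mock (vertical axis) with si-GINS1_1 (orange) and si-GINS1_2 (blue) for GINS and CDC45 and for 7 gene lists (horizontal axis), 1 point per gene with a bar at the median. The partners of GINS1 lie between 0.75 and 1.21 in orange, above every MCM gene, and the MCM and proliferation genes all lie below 0 in blue.

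On the renal arrays, which carried no siRNA, the members lay closer to mock. With miR-139-5p, GINS1 had a ratio of -0.11 in A498 and 0.13 in 786-O, and the mean of the 5 members over both lines lay between -0.14 (GINS3) and 0.14 (GINS2). With miR-139-3p, GINS1 had 0.16 in both lines, and the means lay between -0.21 (CDC45) and 0.16 (GINS1). limma called no member in either group, with an adjusted p of 0.999933 for each member in the 5p group and 0.999945 in the 3p group. The fit shares 1 spread per probe over all groups, and for the partners this spread holds their opposite siRNA values. GINS2 with miR-139-5p had an SD of 0.09 between the lines but a standard error of 0.51 in the fit. The lack of a call therefore does not show that the partners were unchanged. Over all probes, limma called 0.0129%, 3 in number, for the 5p strand and 0.0% for the 3p strand. For the 3p strand, 1011 probes had an unadjusted p under 0.05 and the scanner ratios gave 13 calls. CDC45 with miR-139-3p in A498 was the lowest of these 20 values, at -0.33.

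In HCT116 the members lay on both sides of mock. With miR-490-5p, CDC45 lay at -0.86, GINS3 at -0.65, GINS2 at -0.37 and GINS4 at -0.32, while GINS1 lay at 0.29. CDC45 and GINS3 were thus at or below -0.5, as were 5.6% of the genes on that array. With miR-490-3p, GINS1 lay at 0.55, and 4.06% of genes lay at or above 0.5. The partners lay between -0.36 (GINS4) and 0.05 (CDC45) on that array, and median centring turned GINS3 from -0.01 to 0.27 and GINS2 from -0.12 to 0.16 and raised CDC45 to 0.33. On both HCT116 arrays GINS1 was above each of its partners. There was 1 array per miRNA, so no test was run, and si-GINS1_1 was the 1 array of the 8 on which GINS1 lay more than 1 log2 unit below all 4 partners.

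For each member the 3 genes with the smallest root mean square difference over the 8 arrays were sought among 15963 genes measured on all of them, with the members left out. The siRNA arrays were among the 8, so the siRNA values given for these genes were part of how they were chosen. GINS2 was closest to PKMYT1, a kinase that inhibits CDK1, with a difference of 0.13 log2 units. PKMYT1 lay at 1.19 with si-GINS1_1 and -0.93 with si-GINS1_2. CENPN and SPC24, both of the centromere and kinetochore, followed at 0.18 and 0.20. CDC45 was closest to UHRF1, a factor of maintenance methylation at the fork, at 0.20, with ratios of 0.72 and -1.64. GNA13 and thymidine kinase TK1 followed CDC45 at 0.23 and 0.26.

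GINS4 was closest to the transcript lnc-LRRC61-2 at 0.07, then to KNTC1, a kinetochore protein, and CYB561, both at 0.14. GINS3 was closest to PEMT at 0.09, then to FANCD2, a protein of crosslink repair, at 0.13 and FBXO17 at 0.14. The genes closest to GINS1 were KCTD12 at 0.21, CLDN2 at 0.24 and SMPD1 at 0.24. All 3 were lower with both siRNAs, values that were part of the choice. Among the members themselves, GINS2 and GINS4 differed by 0.22, as did GINS3 and GINS4, and CDC45 was closest to GINS2 at 0.36. GINS1 differed from each partner by 0.89 to 1.01. The arrays of a line may share a mock extract and all share the dyes, so likeness includes these.

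The mock level of each gene was compared between lines on the quantile-normalized log2 Cy3 scale, with a value for each of the 2 mock channels of a line. The channels of a line may hold 1 extract, so their gap is technical and no test was run. Over all probes that gap had an SD of 0.06 log2 units in MDA-MB-231, 0.07 in HCT116, 0.08 in 786-O and 0.10 in A498. A level is set only against the same probe in other lines.

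GINS1 had mock levels of 8.34 and 8.38 in A498, 8.74 and 8.60 in HCT116, 8.93 and 8.97 in MDA-MB-231, and 9.60 and 9.52 in 786-O. The lines spanned 1.21 log2 units or 2.31-fold. GINS2 had 7.27 and 7.21 in A498, 7.98 and 7.90 in MDA-MB-231, 8.25 and 8.19 in 786-O, and 8.93 and 8.88 in HCT116, a span of 1.66 log2 units or 3.17-fold. GINS1 was thus highest in 786-O and GINS2 in HCT116, and both were lowest in A498. Of 14834 genes above background in all mock channels, 33.0% spanned 1 log2 unit or more, so the spans of GINS1 and GINS2 were common in size.

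GINS4 had 7.53 and 7.31 in A498, 8.07 and 8.03 in MDA-MB-231, 8.29 and 8.22 in 786-O, and 8.32 and 8.38 in HCT116. On this scale HCT116 and 786-O differed by 0.09. CDC45 had 8.45 and 8.46 in A498, 8.89 in both channels of HCT116, 9.01 and 9.11 in MDA-MB-231, and 9.16 and 9.17 in 786-O. GINS3 varied least, with 8.57 and 8.53 in MDA-MB-231, 8.64 and 8.70 in A498, 8.66 and 8.75 in HCT116, and 9.01 and 9.16 in 786-O, and the channels of A498 and HCT116 overlapped.

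Scaled to the 75th percentile of each mock channel, A498 was the lowest line for all 5 members, and for GINS3 this replaced MDA-MB-231. GINS1 then differed by 0.04 between 786-O (9.29) and MDA-MB-231 (9.25). The highest line of CDC45 became MDA-MB-231 (9.38) and that of GINS3 became HCT116 (8.92), so these orders depended on the scaling. The gap between HCT116 and 786-O in GINS4 grew from 0.09 to 0.51, and the span of GINS4 from 0.93 to 1.24.

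**Figure D5:**
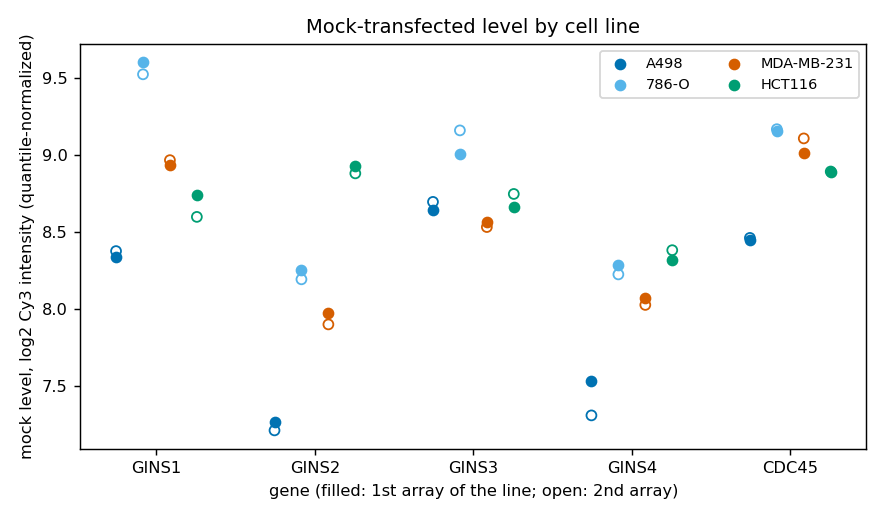
Mock level on the quantile-normalized log2 Cy3 scale (vertical axis) of the 5 members (horizontal axis) in A498, 786-O, MDA-MB-231 and HCT116, with a filled point for the first array of a line and an open point for the second. GINS1 is lowest in A498 and highest in 786-O, and GINS2 is lowest in A498 and highest in HCT116.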

How the data were processed

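Per the file headers, the authors scanned 8 two-colour arrays on 1 slide and processed them with Agilent Feature Extraction. The deposited intensity columns are the mean brightness and the median local background of each spot in each channel, on a linear, unnormalized scale. A log10 ratio (Cy5 over Cy3) from the scanner software was deposited as well, and the series-wide value file repeated it (largest difference 0). Here, spots flagged as outliers were dropped, background was corrected by normexp with an offset of 50, which pulls dim ratios toward 0, ratios were normalized by loess within arrays, and spots of a probe were averaged (limma 3.58.1, R 4.3.3, with the data.table package, version 1.17.8). Probes were named by RefSeq accession where it matched (31104 of 58201 probes) and by the array annotation otherwise, and the brightest probe stood for a gene. Groups with 2 arrays were tested with limma in 1 fit of all 8 arrays against a ratio of 0 (5 group coefficients, 3 residual degrees of freedom), with Benjamini-Hochberg adjustment over all probes tested and a limit of 0.05. The p values rest on 1 spread per probe, pooled over the siRNA pair and the cell line pairs of both miR-139 strands and moderated over probes. They therefore do not measure the spread between the siRNAs, or between the lines, alone. The spread of the mock is left out. In the fits of 1 siRNA array the lone array was assumed to vary like the other groups. Genes named besides the members were, in each list, the lowest and highest mean over the siRNA arrays and any gene called, and the 3 nearest genes of each member. Alternatives were the scanner ratio, median centring, an offset of 10, no background correction, removal of the mean of the 6 arrays without an siRNA, no filter on dim probes, only the siRNA arrays, a variance trend and robust prior, cell line as a random block, leaving out each array, and scaling to the 75th percentile for mock levels. The fit was tested on simulated data. Members, lists and tests were chosen with earlier results of these data known. Later steps used Python 3.11.15, numpy 2.4.6, pandas 2.3.3 and matplotlib 3.10.9.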

Additional observations from a re-analysis of the deposited data

How the results depend on the processing

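Among results over both siRNAs, the GINS1 fall kept its direction in every alternative run, and its mean was -1.87 by the scanner ratio (limma adjusted p 0.0560). It was -1.61 both with only the si-GINS1 arrays (0.523) and with a trended variance and robust prior (0.0506), the other losses of the call. The size of the fall depended on the scaling. Under median centring the GINS1 mean was -1.27 (limma adjusted p 0.0390), with -0.84 for si-GINS1_1 and -1.70 for si-GINS1_2. Over the alternatives the adjusted p ran from 0.000797 to 0.523. The near-zero GINS2 mean of 0.07 became -0.0316 by the scanner ratio, -0.0370 with an offset of 10 and -0.0236 without background correction. Under median centring the means were 0.41 for GINS2, 0.56 for GINS3, 0.46 for GINS4 and -0.05 for CDC45, and with the mean of the other arrays removed GINS3 lay at 0.40 and CDC45 at -0.20, none of them called. Leaving out either siRNA array turned or sharpened the partner means, which ranged from -1.07 to 1.21 for GINS2, -0.47 to 0.83 for GINS3, -0.71 to 0.94 for GINS4 and -1.63 to 0.75 for CDC45. For GINS1 the range was -1.92 to -1.31.

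The 1936 probes called for si-GINS1 became 75 by the scanner ratio, 2974 under median centring, 0 with only the si-GINS1 arrays (2542 at an unadjusted p under 0.05), 0 with a variance trend and robust prior (7117 at an unadjusted p under 0.05), 10521 with cell line as a random block, and 6721 to 9471 leaving out an array. The 3 calls for miR-139-5p became 7 by the scanner ratio, 0 under median centring, 6 with an offset of 10, and 0 without either line. The 0 calls for miR-139-3p became 13, 6 and 4 by the scanner ratio, an offset of 10 and no background correction.

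The difference si-GINS1_2 minus si-GINS1_1 never changed sign. By the scanner ratio it was -0.71 for GINS1, -2.66 for GINS2, -1.84 for GINS4 and -2.53 for CDC45. Under median centring it was -0.86 for GINS1, -2.59 for GINS2, -1.59 for GINS3, -1.94 for GINS4 and -2.70 for CDC45. With an offset of 10 it was -2.53 for GINS2, -1.77 for GINS4 and -2.51 for CDC45, and without background correction -2.51, -1.76 and -2.50.

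Member means near 0 in the miR-139 groups changed sign without a call. With miR-139-5p, GINS1 went from 0.01 to -0.0128 by the scanner ratio, -0.0061 with an offset of 10 and -0.0033 without background correction, and median centring gave 0.0193 for GINS3, 0.0537 for GINS4 and 0.0343 for CDC45. With miR-139-3p, GINS2 went from 0.01 to -0.0047, -0.0050 and -0.0031 by the scanner ratio, an offset of 10 and no background correction, and median centring gave 0.0891 for GINS4. Leaving out a line gave -0.11 to 0.13 for GINS1 with miR-139-5p, and -0.0532 to 0.0662 for GINS2 and -0.16 to 0.15 for GINS4 with miR-139-3p. The causes of these shifts were not tested. Each member has 1 probe, so averaging probes changes nothing. The main fit held no block, since each ratio already sets transfected against mock cells within an array. The miR-139 strands, which share their cell lines, were not compared with each other. Cell line as a random block was fitted as an alternative for si-GINS1 only.

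The arrays have no dye swap and 1 probe per member. The siRNA arrays have no replicate of either siRNA, and the labels leave it unstated whether a mock extract was shared, so a test of 1 siRNA rests on the spread seen in other cell lines. Signal over background limits little here, since every member was well above background on all 8 arrays.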
